A study of Mus musculus with 6 samples.

Results

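The collagen chain genes were examined after MEK inhibition in MS5, a stromal line derived from mouse bone marrow. They were all genes with a probe set of a single symbol made of Col, a type number, the letter a and a chain number. There were 44 of them on 46 probe sets, out of 19938 named genes and 28853 probe sets. MS5 cells had been cultured for 7 days with 1 μM PD184352, an inhibitor of the kinase MEK (MEKi), or with the DMSO diluent alone, and 3 independent experiments each gave 1 diluent and 1 MEKi array. All 6 cultures were of this 1 line and were grown in medium with serum, so the groups differ by the inhibitor. The study profiled them to look for stromal factors that change with MEKi. Values are log2 intensities of Affymetrix mouse Gene ST arrays after RMA normalization, and a difference is MEKi minus diluent within an experiment on that scale.

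Collagens are the main structural proteins of connective tissue. Each molecule is a helix of intertwined chains, made in the endoplasmic reticulum, hydroxylated on proline and lysine, secreted, trimmed and cross-linked outside the cell. Fibrillar chains (types I, II, III, V, XI, XXIV and XXVII) build the rope-like fibrils of the matrix, type IV chains build the sheet-like network of basement membranes, and FACIT chains (fibril-associated collagens with interrupted helices) sit on the surface of fibrils. Marrow stromal cells are a known source of matrix, and MEK is the kinase that activates the ERK kinases downstream of growth factor receptors.

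Array medians lay between 6.29 and 6.38, the highest being the MEKi array of experiment 2. Of 10 stromal marker genes, 8 had a mean above the median of all probe sets (Thy1 and Nt5e did not), against 0 of 7 leukocyte and 0 of 7 endothelial markers, and 1 of 6 cartilage and bone markers (Sox9). The brighter side is a rank by brightness, with its border at a value of 6.32, and not a detection call. Mean differences of the stromal markers ran from −0.57 (Vcam1, adjusted p = 0.0942, limma) to 0.22 (Cxcl12), with 5 above 0 and 5 below. Of 6 adipocyte markers, 5 lay on the brighter side, Lep being the exception. Their mean level ranged from 9.86 to 10.88 in diluent and from 10.15 to 10.99 with MEKi, and their median difference was 0.28, −0.06 and 0.38 in experiments 1, 2 and 3. Adipoq, the adipocyte hormone adiponectin, differed by 0.45 (adjusted p = 0.336, limma) and Plin1, which coats lipid droplets, by 0.51 (adjusted p = 0.457, limma). Adipoq was higher in all 3 experiments, while Plin1 differed by 0.77, −0.17 and 0.93. The other markers had mixed signs, with means of 0.36 for Fabp4, 0.06 for Lpl, 0.04 for Pparg and −0.11 for Lep. The part of these differences in the collagen values was not tested, and in RNA of whole cultures fewer cells of a kind cannot be told apart from less RNA per cell.

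No collagen chain gene passed the test. At an adjusted p under 0.05 (limma with the experiment as a block, Benjamini-Hochberg over all probe sets), 0 of 44 collagen genes were called, against 0.159% of all probe sets and 0.135% of named genes. These were 46 probe sets, 30 higher and 16 lower, a split that became 4 higher and 11 lower after a further quantile normalization. At an unadjusted p under 0.05, 6 collagen genes were higher with MEKi in all 3 experiments, namely Col8a1, Col12a1, Col5a2, Col6a2, Col6a1 and Col10a1, against 7.67% of named genes, and 0 were lower, against 2.09%. An ordinary analysis of variance called no probe set at all, and so 0 of 44 collagen genes. Without regard to any p, 11 collagen genes were higher in all 3 experiments, a share of 25% beside 25.2% of named genes, and 3 were lower in all 3, Col16a1, Col6a6 and Col28a1, beside 7.42%. The remaining 30 had mixed signs. On the brighter side, 9 of 32 collagen genes were higher in all 3, beside 31.7% of such named genes, and 2 were lower in all 3, beside 7.01%.

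The differences were small. Their median over the 44 genes was 0.04, as it was over all named genes, and it was −0.01 after the further quantile normalization. In 26 genes the mean difference lay within 0.1 of 0, and in none did it reach 1.5-fold. Such a difference was rare in general, with 115 of 19938 named genes reaching it, so its absence among 44 genes does not set collagens apart. Taken singly, the 95% intervals of 43 genes lay within 1.5-fold in either direction, and that of Col8a1 reached beyond it. Shares over all named genes are not given for the 26 or the 43. In experiment 1, 21 of the 44 differences were positive, in experiment 2 33 were, and in experiment 3 27 were. Among all named genes the positive shares were 49.4%, 76.6% and 54.7%, so that experiment 2 had the most positive differences among the collagens as among all genes.

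**Figure D1:**
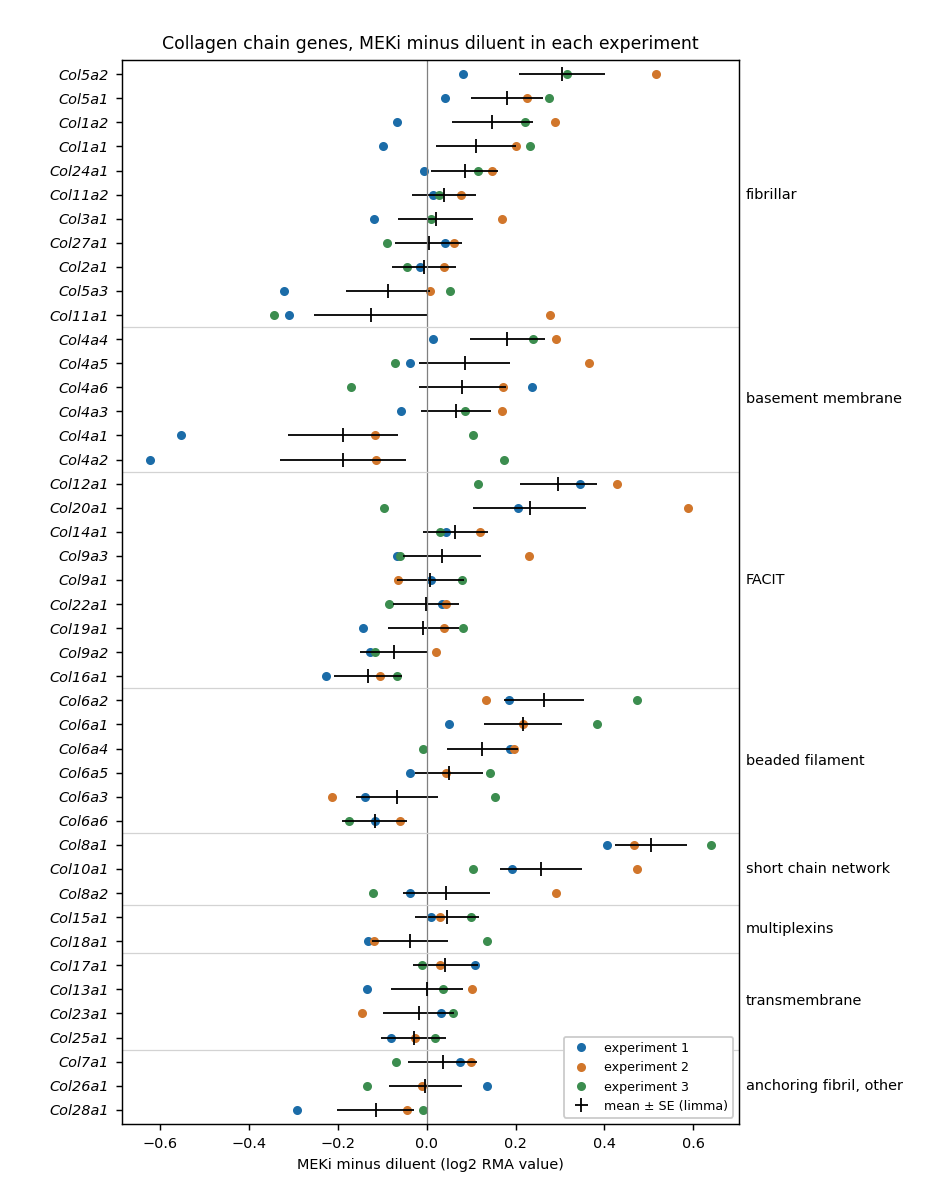
The 44 collagen chain genes, grouped by structural class, with the log2 difference between MEKi and diluent on the x axis. Each colour is 1 of the 3 experiments, and black marks with bars give the limma mean and its standard error. Col8a1 has the highest mean at 0.50, Col4a1 and Col4a2 the lowest at −0.19, and 30 genes have points on both sides of 0.

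Col8a1 had the highest difference of the 44. It encodes a short chain collagen that forms networks in the vessel wall and in the membrane under the corneal endothelium. Its diluent values were 11.53, 11.16 and 10.33 and its MEKi values 11.94, 11.63 and 10.98 in experiments 1, 2 and 3. Each MEKi culture lay above the diluent culture of its own experiment, yet the groups overlapped, since the MEKi value of experiment 3 was below the diluent values of experiments 1 and 2. The mean was 11.01 ± 0.61 in diluent and 11.52 ± 0.49 with MEKi (SD, n = 3). The differences of 0.41, 0.47 and 0.64 gave a mean of 0.50 ± 0.081 (SE), a 1.42-fold higher level, with a 95% interval from 0.31 to 0.69. Its adjusted p was 0.127 in limma. With an intensity trend and a robust prior the adjusted p was 0.0107, and over all alternatives it ranged from 0.0107 to 1.00, with a higher value under MEKi in each.

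Col12a1 and Col5a2 came next. Col12a1 encodes the type XII chain, a FACIT that decorates type I fibrils, and Col5a2 a type V chain, which takes part in starting fibrils and setting their width. For Col12a1 the diluent values were 8.90, 8.34 and 8.89 and the MEKi values 9.25, 8.77 and 9.01. Its lowest MEKi culture, that of experiment 2, lay below the other 2 diluent cultures, so that the groups overlapped. This was a mean difference of 0.30 ± 0.087 (SE), with a 95% interval from 0.09 to 0.50 and an adjusted p of 0.346 in limma. For Col5a2 the diluent values were 8.57, 8.78 and 8.33 and the MEKi values 8.65, 9.29 and 8.65. The MEKi cultures of experiments 1 and 3 lay between the diluent cultures, and that of experiment 2 stood above all others. On average Col5a2 was 0.30 ± 0.097 (SE) higher, with a 95% interval from 0.08 to 0.53 and an adjusted p of 0.379 in limma.

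Col6a1 and Col6a2 encode chains that join with that of Col6a3 to form type VI collagen, which assembles into beaded filaments around cells. Col6a2 had diluent values of 11.70, 11.51 and 11.12 and MEKi values of 11.88, 11.65 and 11.60. Col6a1 had diluent values of 11.75, 11.66 and 11.34 and MEKi values of 11.80, 11.88 and 11.73. In both genes the diluent culture of experiment 3 was the lowest of the 6, and the MEKi groups overlapped with the upper diluent cultures. The mean difference of Col6a2 was 0.26 ± 0.091 (SE; adjusted p = 0.410, limma) and that of Col6a1 was 0.22 ± 0.088 (SE; adjusted p = 0.484, limma). The partner chain Col6a3 did not share this pattern: its differences were −0.14, −0.21 and 0.15, with a mean of −0.07 and a 95% interval from −0.29 to 0.15. Whether the chains differed from each other in response was not tested.

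Col10a1 encodes the type X chain of hypertrophic cartilage. Its diluent values were 6.58, 6.84 and 6.70 and its MEKi values 6.77, 7.32 and 6.81. The MEKi culture of experiment 2 was the highest of the 6 and the other 2 MEKi cultures lay below the highest diluent culture. The mean difference was 0.26 ± 0.093 (SE; adjusted p = 0.427, limma). The cartilage and bone markers had a mean level of 4.87 to 5.01 in diluent and of 4.93 to 5.10 with MEKi.

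**Figure D2:**
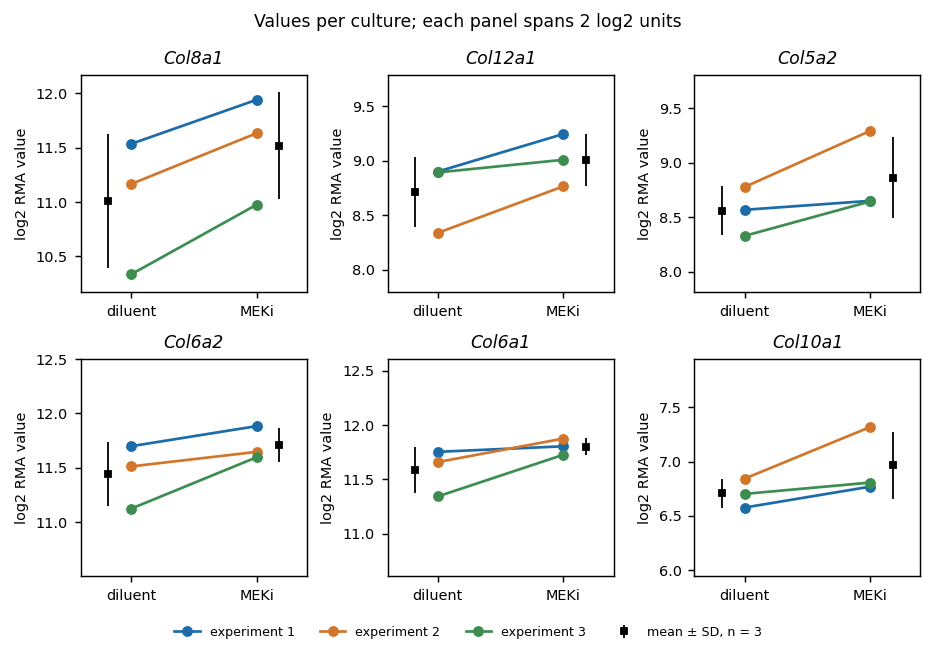
Log2 RMA values (y axis, 2 log2 units in every panel) of the 6 collagen genes with an unadjusted p under 0.05, in diluent and MEKi cultures. A line connects both cultures of 1 experiment, and black squares with bars are the mean and SD of 3 cultures. Every line goes up, and in every panel the ranges of the groups overlap.

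In 38 of the 44 genes the range of the 3 diluent values exceeded the size of the mean MEKi difference, as it did in 87.1% of named genes. This range lies between experiments and does not enter the test, which compares cultures within an experiment. The median diluent range was 0.145 and the median size of the difference 0.077. The widest diluent range was that of Col8a1, at 1.20. Groups without overlap were found for 3 genes. The MEKi cultures of Col4a4 lay all above the diluent cultures, an arrangement seen in 5.96% of named genes, and those of Col16a1 and Col6a6 all below, as in 2.08% of named genes.

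The fibrillar chains had no gene past the test among 11. Their median difference was −0.01, 0.17 and 0.05 in the 3 experiments and 0.04 over the mean differences, against −0.002, 0.11 and 0.02 in the 3 experiments for all named genes. Positive differences were found in 4, 11 and 8 of the 11 genes. Col5a1, Col5a2 and Col11a2 were higher in all 3 experiments and none was lower in all 3. Col1a1 and Col1a2 encode both chains of type I collagen, the bulk protein of bone and tendon. Col1a1 had diluent values of 11.07, 11.01 and 10.77 and MEKi values of 10.97, 11.21 and 11.00, and Col1a2 had diluent values of 11.08, 11.02 and 10.63 and MEKi values of 11.01, 11.31 and 10.85. In each of these genes the MEKi culture was the lower one in experiment 1 and the higher one in experiments 2 and 3. The mean difference was 0.11 for Col1a1 (95% interval −0.10 to 0.32) and 0.15 for Col1a2 (−0.07 to 0.36).

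Col5a1, the partner of Col5a2 in type V collagen, had diluent values of 8.50, 8.23 and 8.24 and MEKi values of 8.54, 8.46 and 8.51. Its difference was 0.18 ± 0.081 (SE; adjusted p = 0.531, limma). The third type V gene, Col5a3, had a difference of −0.32 in experiment 1 and of 0.01 and 0.05 in the others. Col11a1, a chain of cartilage fibrils that also joins type V molecules, had differences of −0.31, 0.28 and −0.34, so that its sign depended on the experiment. Col3a1, the chain of type III collagen in elastic tissues, differed by −0.12, 0.17 and 0.01. The other fibrillar genes, Col2a1, Col11a2, Col24a1 and Col27a1, had mean differences between −0.01 and 0.09.

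The basement membrane chains had no gene past the test among 6. Their median difference was −0.05, 0.17 and 0.10 in the 3 experiments and 0.07 over the mean differences, and it was −0.05 over the 4 genes on the brighter side. Col4a1 and Col4a2 encode the chains of the ordinary type IV network, which is present in nearly all basement membranes. Col4a1 had diluent values of 9.99, 10.13 and 10.01 and MEKi values of 9.44, 10.01 and 10.11. Col4a2 had diluent values of 9.61, 9.90 and 9.72 and MEKi values of 8.98, 9.79 and 9.89. In both, the MEKi culture of experiment 1 was the lowest of the 6, and the other 2 MEKi cultures lay within the diluent range. Both had a mean difference of −0.19 (Col4a1, 95% interval −0.48 to 0.10, adjusted p = 0.675 in limma; Col4a2, −0.52 to 0.15, adjusted p = 0.722). Without experiment 1 the difference of Col4a2 was 0.03 and that of Col4a1 −0.01.

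Col4a3, Col4a4, Col4a5 and Col4a6 encode the chains of more restricted networks, such as that of the kidney filter. Col4a4 had diluent values of 6.26, 6.21 and 6.23 and MEKi values of 6.28, 6.50 and 6.47. Its MEKi cultures lay above all diluent cultures, by a narrow margin in experiment 1. This was a mean difference of 0.18 ± 0.084 (SE; adjusted p = 0.547, limma). Differences of the other chains had mixed signs, with means of 0.07 for Col4a3, 0.09 for Col4a5 and 0.08 for Col4a6. For Col4a5 the mean rested on experiment 2, whose difference was 0.37 beside −0.04 and −0.07 in the others. The mean levels of Col4a4 and Col4a5 over all arrays, 6.32 and 6.35, lay close to the border of the brighter side at 6.32.

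The FACIT chains had no gene past the test among 9. Their median difference was 0.01, 0.04 and −0.06 in the 3 experiments and 0.01 over the mean differences, and it was −0.02 when each array was centred on its median and −0.03 after the further quantile normalization. Positive differences were found in 5, 7 and 4 of the 9 genes. Beside Col12a1, Col14a1 was higher in all 3 experiments, with a mean of 0.06. Col20a1, a minor FACIT chain, had the most unequal differences of the class, with diluent values of 7.36, 7.06 and 7.61 and MEKi values of 7.56, 7.65 and 7.51. Its differences were 0.20, 0.59 and −0.10, and the MEKi cultures lay closer together than the diluent cultures did. The mean difference was 0.23 ± 0.127 (SE; adjusted p = 0.608, limma).

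Col16a1, a FACIT chain found near fibrils and in microfibrils, was the lowest of the class. Its diluent values were 7.27, 7.21 and 7.19 and its MEKi values 7.04, 7.10 and 7.12, with no overlap. The mean difference was −0.13 ± 0.076 (SE; adjusted p = 0.627, limma). The cartilage type IX chains Col9a1, Col9a2 and Col9a3 had means of 0.01, −0.07 and 0.03, Col19a1 one of −0.01, and Col22a1, a chain of tissue junctions, one of 0.00.

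Set side by side, the class medians changed from experiment to experiment. The medians of the fibrillar and the basement membrane chains were below 0 in experiment 1 and above 0 in experiments 2 and 3. That of the FACIT chains was below 0 only in experiment 3. The SD of the 3 experiment medians was 0.09 for fibrillar, 0.11 for basement membrane and 0.05 for FACIT chains. The class medians over the mean differences, 0.04, 0.07 and 0.01, lay closer together than 1 such SD of the fibrillar or the basement membrane chains. They lay further apart than 1 such SD of the FACIT chains. These SDs include shifts common to all classes, since the median over all named genes was −0.002, 0.11 and 0.02. The gap between classes within an experiment was not tested. No test over the genes of a class was made, since they share the same 6 cultures.

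**Figure D3:**
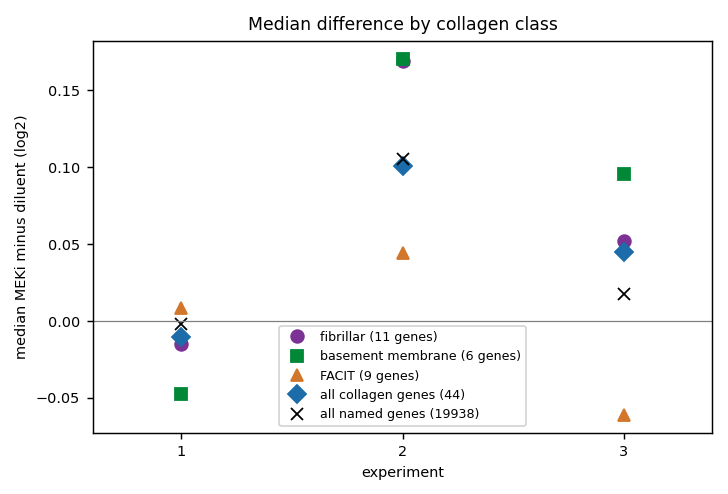
Class medians of the log2 difference between MEKi and diluent (y axis) in experiments 1, 2 and 3 (x axis) for the fibrillar, basement membrane and FACIT genes, all collagen genes and all named genes. In experiment 2 every median is above 0, and the basement membrane median runs from −0.05 in experiment 1 to 0.17 in experiment 2.

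In the other classes, the 6 type VI genes had a median difference of 0.09. Col6a4, Col6a5 and Col6a6 encode alternative chains that can stand in for that of Col6a3. Col6a6 had diluent values of 6.70, 6.70 and 6.80 and MEKi values of 6.58, 6.64 and 6.62, all below the diluent ones, and its mean difference was −0.12 ± 0.074 (SE; adjusted p = 0.659, limma). A second, dimmer probe set of Col6a6 gave −0.07, 0.01 and −0.05. Col6a4 and Col6a5 had means of 0.13 and 0.05. Of the short chain genes, Col8a2, the partner of Col8a1, differed by −0.04, 0.29 and −0.12, which was not the pattern of Col8a1. The multiplexins Col15a1 and Col18a1, whose ends can be released as fragments such as endostatin, had means of 0.05 and −0.04. The transmembrane chains Col13a1, Col17a1, Col23a1 and Col25a1 lay between −0.03 and 0.04. Col7a1, the anchoring fibril of the skin, and Col26a1 had means of 0.04 and 0.00. Col28a1 was lower in all 3 experiments, with −0.29, −0.05 and −0.01, a mean that rested on experiment 1.

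Several collagen genes lie next to one another in the genome. The start regions of the neighbours Col6a1 and Col6a2 are shown because their differences were alike, and that of Col8a1 because it had the highest difference. Sequences are from RefSeq on GRCm38.p6, written 5′ to 3′ along the gene's strand, and 35 of the 44 genes had an entry there. Capitals mark a GC box (GGGCGG, read on both strands, so CCGCCC too), the short element read by Sp family factors, or an AP-1 site (TGANTCA), the element read by Fos and Jun proteins. The stretches of 250 bases before the start are at chr16:57754738-57754987 for Col8a1, at chr10:76726045-76726294 for Col6a1 and at chr10:76623631-76623880 for Col6a2, all on the minus strand.
Col8a1: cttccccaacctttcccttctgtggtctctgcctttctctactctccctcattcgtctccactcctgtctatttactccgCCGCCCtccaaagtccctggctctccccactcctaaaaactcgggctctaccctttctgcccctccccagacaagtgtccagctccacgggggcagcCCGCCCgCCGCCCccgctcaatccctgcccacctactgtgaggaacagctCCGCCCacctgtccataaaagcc
Col6a1: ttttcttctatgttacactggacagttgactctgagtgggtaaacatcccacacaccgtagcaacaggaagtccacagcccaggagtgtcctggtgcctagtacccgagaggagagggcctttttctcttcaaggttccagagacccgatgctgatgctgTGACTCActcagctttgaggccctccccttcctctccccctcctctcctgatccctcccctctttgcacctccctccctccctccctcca
Col6a2: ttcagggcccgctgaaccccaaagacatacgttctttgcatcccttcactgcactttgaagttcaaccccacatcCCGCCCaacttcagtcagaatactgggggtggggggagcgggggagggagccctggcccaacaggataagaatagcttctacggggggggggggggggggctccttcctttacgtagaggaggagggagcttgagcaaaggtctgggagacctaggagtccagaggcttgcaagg
The Col8a1 stretch holds 4 GC boxes, the nearest ending 18 bases before the start. That of Col6a1 holds 1 AP-1 site, 90 to 84 bases before the start, and that of Col6a2 holds 1 GC box.

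Over windows of the 250 bases before a start, a GC box was found in 57.9% of the 38 collagen windows and in 32.7% of all 32851 windows. A CCAAT box (CCAAT) was found in 34.2% and 33.9%, and a TATA box (TATAAA) in 13.2% and 12.4%. An AP-1 site was found in 1 collagen window, that of Col6a1, or 2.63%, beside 6.75% of all windows. A single form of the ETS site (CCGGAA), the element of a family that includes ERK targets, was found in 0 collagen windows and in 12.0% of all. Other forms of this site were not searched, so the count does not show that collagen windows lack ETS sites. All were searched on both strands, and collagen genes with several starts have several windows. These counts describe letters in a window and no binding was measured.

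Of 8 neighbouring pairs, 3 had both genes on the brighter side. Col4a1 and Col4a2, on chromosome 8, start head to head on opposite strands, and their annotated transcripts share 22 bases at the start. They kept within 0.071 of each other in every experiment, while their shared difference ran from −0.55 and −0.62 in experiment 1 to 0.11 and 0.17 in experiment 3. Col6a1 and Col6a2, on chromosome 10, kept within 0.13. Col3a1 and Col5a2, on chromosome 1, were up to 0.35 apart, with Col5a2 the higher difference in each experiment. These 3 pairs had the same sign in 8 of 9 comparisons, and all 8 pairs in 15 of 24. The share over other gene pairs was not computed, so these counts do not show that neighbours are more alike than other genes. Of all named genes, 49.4%, 76.6% and 54.7% were positive in experiments 1, 2 and 3. The pairs were read on the same arrays, so their values share the same cultures.

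**Figure D4:**
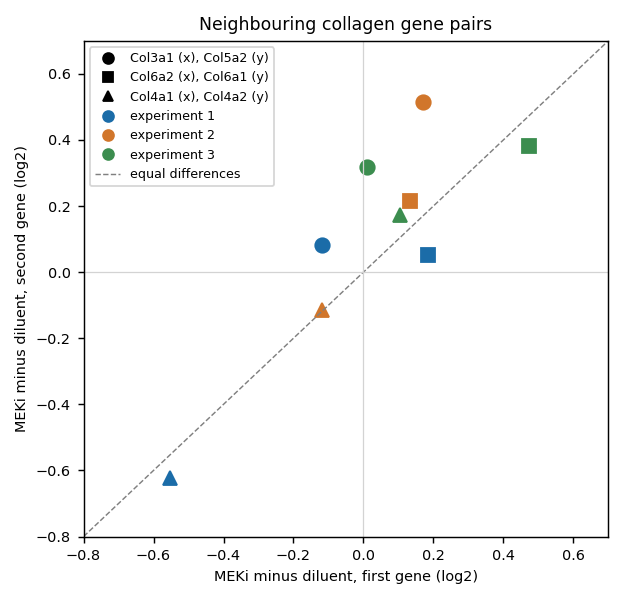
Log2 differences between MEKi and diluent for the first (x axis) and the second gene (y axis) of 3 neighbouring pairs, with a symbol for each pair and a colour for each experiment. The dashed line marks equal differences. Points of Col4a1 and Col4a2 lie within 0.071 of it, and those of Col3a1 and Col5a2 lie 0.20 to 0.35 above it.

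Across the 44 collagen genes, the differences of experiments 1 and 2 correlated with r = 0.56, those of 1 and 3 with 0.22 and those of 2 and 3 with 0.21. Over all named genes the values were 0.21, 0.40 and 0.13. These are descriptions across genes, which share arrays and are not independent replicates.

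Genes that fold and modify collagen in the endoplasmic reticulum gave 0 called of 23 measured (limma). At an unadjusted p under 0.05, 5 were higher in all 3 experiments, beside 7.67% of named genes, and 0 were lower. Of the 23, 10 were higher in all 3 experiments, beside 25.2% of named genes, and 1, Tmem38b, was lower in all 3, beside 7.42%. On the brighter side, where 20 of the 23 lay, these shares of named genes were 31.7% and 7.01%. P4ha3, a catalytic subunit of prolyl hydroxylase, had diluent values of 8.94, 8.15 and 8.05 and MEKi values of 9.41, 8.56 and 8.47. Each MEKi culture was higher than its own diluent culture, and the groups overlapped because experiment 1 ran higher in both. The difference was 0.43 ± 0.072 (SE; adjusted p = 0.133, limma). Fkbp14, a prolyl isomerase, differed by 0.34 (adjusted p = 0.249, limma) and P3h4, a member of the lysine hydroxylation complex, by 0.31 (adjusted p = 0.250, limma). Serpinh1, the collagen chaperone HSP47, differed by 0.10. P4ha2, another catalytic subunit of prolyl hydroxylase, had the lowest mean of the list, at −0.28, with mixed signs.

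Genes for trimming and cross-linking gave 0 called of 11 measured (limma). At an unadjusted p under 0.05, 1 was higher in all 3 experiments, beside 7.67% of named genes. This was Bmp1, the protease that removes the end of fibrillar procollagens. Its diluent values were 11.78, 11.82 and 11.63 and its MEKi values 11.89, 12.02 and 11.87, with all MEKi cultures above all diluent cultures, as in 5.96% of named genes. They were 0.19 higher on average (adjusted p = 0.482, limma). Loxl1 and Loxl3, lysyl oxidases that start cross-links, were lower in all 3 experiments, as were 7.42% of named genes. Their means were −0.19 (adjusted p = 0.553, limma) and −0.12, with −0.04 and −0.002 in experiment 3. The lysyl oxidases Lox and Loxl4 had mixed signs, with means of −0.07 and 0.04. Pcolce2, an enhancer of Bmp1, differed by 0.35 on average, with experiment 2 at the opposite sign (adjusted p = 0.652, limma).

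Among receptors, 1 of 11 measured genes was called, beside 0.135% of named genes. Itga1, the α chain of the integrin that binds type IV and type I collagen, had diluent values of 8.12, 8.87 and 8.12 and MEKi values of 8.95, 9.52 and 9.10. All MEKi cultures lay above all diluent cultures, as in 5.96% of named genes. It rose by 0.82 ± 0.087 (SE), or 1.77-fold, with an adjusted p of 0.0351 in limma. This call was lost when any experiment was left out (adjusted p 0.0552 to 0.131), after the further quantile normalization (0.0616), after centring (0.0684), with experiment as a random block (0.378) and without the replicate block (1.00). The partner Itgb1 differed by 0.09, and the collagen receptors Ddr1 and Ddr2 by 0.13 and −0.04.

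The list for collagen cleavage held proteases and also the protease inhibitors Timp1, Timp2 and Timp3. It gave 0 called of 11 measured genes (limma). At an unadjusted p under 0.05, 1 was higher and 2 were lower in all 3 experiments, beside 7.67% and 2.09% of named genes. Fap, a membrane protease of activated fibroblasts, had diluent values of 8.38, 7.78 and 7.73 and MEKi values of 8.85, 8.34 and 8.18. Each experiment ran the same way, while the groups overlapped. Its difference of 0.50 ± 0.074 (SE) had an adjusted p of 0.0958 in limma, and 0.0451 with an intensity trend and a robust prior. Mmp13, a collagenase, had diluent values of 11.02, 11.33 and 11.79 and MEKi values of 9.84, 11.04 and 11.09. The groups overlapped, and its differences were all below 0, the largest in size in experiment 1, with a mean of −0.72 ± 0.155 (SE; adjusted p = 0.195, limma). Mmp16, a membrane-type metalloprotease, differed by −0.23 (adjusted p = 0.461, limma).

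**Figure D5:**
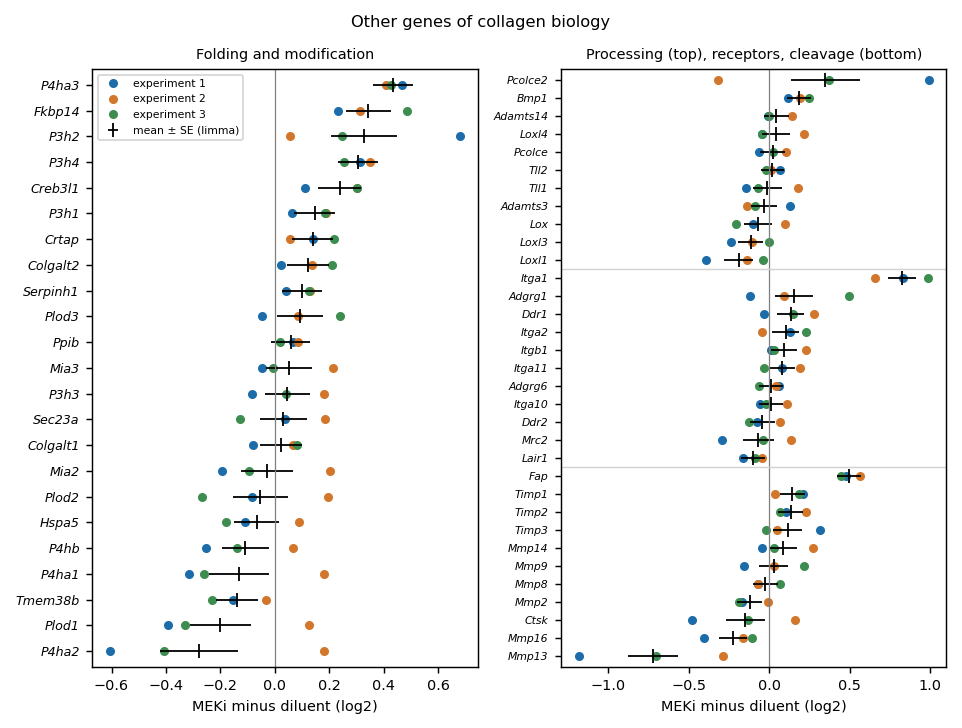
Other genes of collagen biology, with the log2 difference between MEKi and diluent on the x axis. Folding and modification is on the left. On the right, from top to bottom, are trimming and cross-linking, receptors, and cleavage with the Timp inhibitors, parted by grey lines. Colours mark the 3 experiments, and black marks with bars the limma mean and standard error. Itga1 stands highest at 0.82 and Mmp13 lowest at −0.72.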

How the data were processed

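RNA of 6 MS5 cultures was profiled on Affymetrix mouse Gene ST arrays. The authors normalized the intensities with RMA and deposited log2 values of 28853 probe sets, which were used unchanged; versions of RMA and Partek and a genome build are not given in the sources used here. A further 0 columns of array values were left unused. RMA fits the arrays given to it together, and its quantile step is meant to remove shifts shared by a whole array. The medians of the deposited arrays still ran from 6.29 to 6.38. Whether all 6 arrays were normalized in a single run is not stated. Of the probe sets, 21789 name 1 gene, 1621 several and 5443 none; a gene with several was represented by the brightest. Fits were made in R 4.3.3 with limma 3.58.1 (lmFit, eBayes; 2 residual and 5.17 prior degrees of freedom), with the experiment as a block and Benjamini-Hochberg adjustment over all probe sets, at a threshold of 0.05. The labels and the study's methods give 1 culture per condition and experiment, and deviations from group means correlated by 0.59 to 0.81 between same-numbered arrays, against −0.60 to 0.21 for others, so the numbers pair the arrays. In limma, the spread of a gene between these experiments is drawn toward that over all probe sets. The p-values and SEs of limma rest on this moderated spread, and the number of arrays limits their precision.

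The collagen genes, structural classes, pathway and marker lists were chosen with earlier results of these data known. Named were collagen genes past the threshold or at an unadjusted p under 0.05 with 1 direction, all fibrillar, type IV and FACIT genes (values for up to 6 of each by size), up to 2 of each other class, neighbouring pairs, and in pathway lists those past the threshold, otherwise up to 3 by p. Other members and pathway genes named were chosen after their values were seen. Of the listed genes, Fkbp10, Adamts2, Loxl2, Gp6, Mmp15, Runx2, Bglap and Cfd were not analysed here. Alternatives were no replicate block, a random block, further quantile normalization, centring, brighter or single-gene probe sets only, array weights, an intensity trend plus robust prior, averaging the probe sets of a gene, an ordinary analysis of variance and each experiment left out. The fit was tested on simulated data. Python 3.11.15 and matplotlib 3.10.9 made the figures.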

Additional observations from a re-analysis of the deposited data

How the results depend on the processing

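With the experiments unpaired (no replicate block), 0 probe sets and 0 receptor genes passed the threshold, beside 46 and 1 with the block. With experiment as a random block both counts were also 0. Over all probe sets the count was 15 after a further quantile normalization, 0 after centring of arrays, 25 among brighter probe sets, 115 with an intensity trend and a robust prior and 0 by an ordinary analysis of variance. Leaving out 1 experiment gave 0 to 37, with 14 without experiment 1 and 0 without experiment 2. The receptor count was 0 after quantile normalization, after centring and without any 1 experiment (0 to 0). With the trend and robust prior, 1 collagen gene (Col8a1, adjusted p = 0.0107, limma) and 1 cleavage gene (Fap) passed. Under the other alternatives run the collagen count stayed at 0. The basement membrane median was −0.0514 over the 4 brighter genes. Signs reversed in these genes. After quantile normalization Col3a1 was at −0.019, Col11a2 at −0.0052, Col27a1 at −0.048, Col9a1 at −0.028, Col9a3 at −0.019, Col13a1 at −0.042 and Col7a1 at −0.011. After centring Col3a1 was at −0.012, Col27a1 at −0.027, Col9a1 at −0.024 and Col13a1 at −0.031. With array weights Col3a1 was at −0.0050, Col27a1 at −0.0086, Col9a3 at −0.0021, Col8a2 at −0.0034, Col13a1 at −0.014 and Col23a1 at 0.0062. Without 1 experiment the differences ranged from −0.158 to 0.0293 for Col5a3, −0.369 to 0.0294 for Col4a2, −0.0516 to 0.0605 for Col19a1, −0.125 to 0.00825 for Col18a1, −0.0547 to 0.0898 for Col3a1, −0.0549 to 0.164 for Col4a5, −0.0639 to 0.0847 for Col9a3, −0.0281 to 0.0445 for Col9a1, −0.0292 to 0.0123 for Col2a1, −0.0239 to 0.0518 for Col27a1, −0.0252 to 0.0390 for Col22a1, −0.176 to 0.0070 for Col6a3, −0.0792 to 0.127 for Col8a2, −0.0488 to 0.0696 for Col13a1, −0.0571 to 0.0458 for Col23a1 and −0.0721 to 0.0629 for Col26a1. Of 384 values of the 44 collagen genes under the alternatives that kept all experiments, 366 had the same direction and side of the threshold and 17 reversed. Most of these values could not reverse, so the count of 366 is no measure of stability. The 2 block settings, the brighter or single-gene restriction and the trend with robust prior leave each difference unchanged. Averaging changes only genes with several probe sets. All 17 reversals came from quantile normalization, centring or array weights. The analysis of variance leaves these differences as they are, and its lowest adjusted p among collagen genes was 0.627. The causes were not tested. Of the collagen genes, 12 lay on the dimmer side of all probe sets.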
